A study of Mus musculus with 96 samples.

Results

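HBS1-lineage primary tumours were compared with LCS-driven primary tumours in a mouse liver cancer series, by RNA sequencing of dissected tissue. The comparison took 14 of the 96 libraries of the series, chosen by their labels. The HBS1-lineage tumours were 2 HBS1_F2-driven and 2 HBS1-driven primary tumours, pooled as 4, and were set against 10 LCS-driven primary tumours. The source is given as liver for the HBS1-lineage tumours and only as tissue for the LCS-driven tumours. Each tumour carries the name of an organoid line (a 3D culture of liver tumour cells) in its label. HBS1 and HBS1_F2 share a line name, and the labels of the LCS-driven tumours do not say which of the LCS lines each came from. The labels give no strain, genotype, sex or age for any of these tumours and name no treatment. The letters LCS, HBS and F2 are not expanded. How a driven tumour was raised, and which libraries came from separate animals, is not given either, so p-values measure the spread between these libraries. Libraries are numbered within a group in accession order, and the numbers carry no meaning. Where 4 levels stand in a row for the HBS1-lineage tumours, they are those of HBS1_F2-driven tumours 1 and 2 and of HBS1-driven tumours 1 and 2.

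Imprinted genes are expressed from the copy inherited from 1 parent. Igf2 encodes insulin-like growth factor 2 and H19 is a long non-coding RNA beside it. Both are abundant in fetal liver, are shut down after birth, and return in some liver cancers together with Afp, the fetal serum albumin. A second imprinted region, between Meg3 and Dio3, holds the long RNAs Meg3, Rian and Mirg, the retrotransposon-derived Rtl1, and a large cluster of microRNA hairpins processed from those long RNAs. Bile ducts and gut linings are simple epithelia, marked by the adhesion molecule Epcam and the keratins Krt7 and Krt19. Liver cancers range from those that resemble hepatocytes or their fetal precursors to those that resemble bile duct epithelium.

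The microRNA hairpins between Meg3 and Dio3 are shown first because their host transcripts were among the genes with the largest differences. RefSeq lists 58 hairpins there on the plus strand of chromosome 12 (GRCm38.p6), 48 of them have a row in the count files, and they were chosen for description after values of the region had been seen. The mature sequences below belong to hairpins that passed the filter on low counts, written 5′ to 3′ with the seed (bases 2 to 8, which pair with target messages) in capitals. Among the 8 shown, the arms miR-379-3p and miR-411-3p have the same seed, as have miR-1197-5p and miR-758-5p.
miR-127-3p: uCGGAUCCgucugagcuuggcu
miR-433-3p: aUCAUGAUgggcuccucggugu
miR-134-5p: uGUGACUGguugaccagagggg
miR-654-3p: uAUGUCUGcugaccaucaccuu
miR-379-3p: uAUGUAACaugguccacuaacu
miR-411-3p: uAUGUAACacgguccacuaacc
miR-1197-5p: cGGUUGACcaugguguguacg
miR-758-5p: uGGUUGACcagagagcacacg

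The 4 HBS1-lineage libraries held 17428577 to 55723344 gene counts, and the 10 LCS-driven libraries 22851103 to 50771773. Ribosomal repeats took 0.391 to 3% of counts in HBS1-lineage tumours and 0.159 to 6.3% in LCS-driven tumours. Mitochondrially encoded genes took 6.97 to 9.59% of counts in HBS1-lineage tumours and 1.82 to 4.53% in LCS-driven tumours. RNaseP_nuc, a small nuclear RNA gene, was at 44.6 to 110 CPM (counts per 1000000 gene counts) in HBS1-lineage tumours and 143 to 634 CPM in LCS-driven tumours. The pseudogene Rpl34-ps1 took 13.2 to 30.6% of the reads given to it and to its parent Rpl34 together in HBS1-lineage tumours, against 77.4 to 89.9% in LCS-driven tumours. The ranges of the last 3 measures do not overlap between the 2 kinds of tumour, and their part in the results was not tested. Xist, an RNA of female cells, was at 556 to 982 CPM in HBS1-lineage tumours and 596 to 1610 CPM in LCS-driven tumours. The Y-linked Ddx3y was at 0 CPM in HBS1-lineage tumours and at most 0.052 CPM in LCS-driven tumours, so both kinds had a female pattern. The first 3 digits of the submitters' library identifiers form blocks of unstated meaning. HBS1-driven tumour 1 and LCS-driven tumours 8, 9 and 10 stand in block 044, the other 3 HBS1-lineage tumours in block 048 and LCS-driven tumours 1 to 7 in block 016, so 1 block holds both kinds.

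Among 17419 genes tested, 3893 (22.3%) were called higher and 4411 (25.3%) lower in HBS1-lineage tumours at an adjusted p under 0.05, together 47.7% of genes (edgeR quasi-likelihood test, Benjamini-Hochberg adjustment). The shares 22.3% and 25.3% are the background for every count below. The median log2 fold change of all genes tested was -0.09. For 2171 genes (12.5%) all 4 HBS1-lineage tumours lay above all 10 LCS-driven tumours, and for 2100 (12.1%) all 4 lay below. Over 10688 well expressed genes, the SD of log2 differences was 0.43 between the HBS1_F2-driven tumours, 0.56 between the HBS1-driven tumours and 0.65 to 0.86 across these 2 labels. It was 1.08 to 1.71 between an HBS1-lineage and an LCS-driven tumour, and 0.45 to 1.28 within the LCS-driven tumours. In bulk tissue, fewer cells of a type and less RNA per cell cannot be told apart.

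In block 044, with 1 tumour against 3, edgeR called 0 genes, and 2005 genes had an unadjusted p under 0.05. There, HBS1-driven tumour 1 lay beyond all 3 LCS-driven tumours in the direction of the call for 3378 (86.8%) of the genes called higher and for 3611 (81.9%) of those called lower. Over all genes tested, it lay above all 3 for 30.5% and below all 3 for 32%. It lay beyond them in the opposite direction for 16 (0.411%) and 7 (0.159%) of the called genes. The tumours of this block also entered the fit that made the calls, so these shares are in part built in and are no separate check. With the identifier block as a term in the model, 520 genes were called higher and 241 lower. These included Igf2, H19, Afp, Rtl1, Meg3, Trim50, Cdh19, Strc, Gkn3, Igf1r and Irs2 among the higher, and Epcam, Krt19, Krt14, Cdx2, Esrp1, Cd24a, Pmaip1 and Car9 among the lower. Rtl1, Trim50, Cdh19, Strc, Gkn3, Krt14, Cdx2 and Esrp1 passed the filter on low counts only through the kind of tumour where they were high. Their direction was thus fixed by the filter. Of the gene lists described below, the fetal liver list had 5 members called higher with that term, the imprinted list 5, PI3K and insulin signalling 3 and fatty acid synthesis 2. The biliary and the mucin lists had 2 lower each, and the gut, squamous, mesothelial and hypoxia lists 1 lower each, with 1 higher each in the gut and squamous lists. The mitochondrially encoded list had 1 higher. None was called in the hepatocyte, bile acid, Notch, beta-catenin, proliferation, fibroblast, matrix protease, lipid droplet or macrophage lists. In block 044 HBS1-driven tumour 1 lay between the LCS-driven tumours for Notch1, Cyp3a11, Cyp7a1, Mest, Ly6d, Cidea, Fap and Clec4f. For Ibsp it had no read and did not lie below all 3 of them, which is a tie.

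Igf2 and H19 were high in every HBS1-lineage tumour and close to absent in every LCS-driven tumour. Igf2 had 3588 and 6776 CPM in HBS1_F2-driven tumours and 1584 and 4555 CPM in HBS1-driven tumours, against 0.252, 1.14 and 9.13 CPM (lowest, median and highest) in LCS-driven tumours. Its log2 fold change was 10.91 ± 0.997 (SE, edgeR adjusted p = 3.29e-06). All 4 HBS1-lineage tumours lay above all 10 LCS-driven tumours. H19 had 1803 and 2547 CPM in HBS1_F2-driven tumours and 1445 and 4014 CPM in HBS1-driven tumours, against 2.57, 4.55 and 8.91 CPM in LCS-driven tumours. It had the smallest adjusted p of all genes (8.95 ± 0.37, edgeR adjusted p = 6.96e-09). The growth factor's signalling receptor Igf1r averaged 66.1 ± 11.4 CPM in HBS1-lineage tumours (SD, n = 4) and 9.33 ± 3.00 CPM in LCS-driven tumours (SD, n = 10), a log2 fold change of 2.82 ± 0.22. Igf2r, the receptor that clears the growth factor, rose by 0.55 ± 0.16 on the log2 scale.

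The Meg3 to Dio3 region was higher across its long RNAs. Meg3 had 140 and 250 CPM in HBS1_F2-driven tumours and 117 and 112 CPM in HBS1-driven tumours, against 1.44, 2.20 and 4.03 CPM in LCS-driven tumours (log2 fold change 5.88 ± 0.31, edgeR adjusted p = 7.02e-08). Rtl1 had 23.0 and 56.8 CPM in HBS1_F2-driven tumours and 42.0 and 64.3 CPM in HBS1-driven tumours, against 0, 0.0116 and 0.176 CPM in LCS-driven tumours (9.82 ± 0.67). Rian had 379 and 539 CPM in HBS1_F2-driven tumours and 182 and 208 CPM in HBS1-driven tumours, against 2.01, 5.37 and 14.9 CPM in LCS-driven tumours (5.53 ± 0.48). The groups do not overlap for any of these RNAs. Rtl1 passed the filter on low counts only through its level in HBS1-lineage tumours, so its direction was fixed by the filter. Mirg rose likewise (5.66 ± 0.34), whereas Dio3, a deiodinase gene at the far end of the region, had a log2 fold change of -2.26 ± 0.93 (edgeR adjusted p = 0.0585) with means of 0.145 CPM in HBS1-lineage tumours and 0.783 CPM in LCS-driven tumours. Strand-specific counting is not stated in the sources used here, so reads of Rtl1 and of transcripts antisense to it cannot be told apart.

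Reads over the 48 hairpins followed the long RNAs. Summed over the hairpins, they made up 17.2 and 24.7 CPM of the gene counts in HBS1_F2-driven tumours and 17.2 and 12.5 CPM in HBS1-driven tumours, against 0.414, 0.533 and 1.06 CPM in LCS-driven tumours. The HBS1-lineage tumours had counts at 40 to 43 hairpins each and the LCS-driven tumours at 9 to 20. Only 15 hairpins passed the filter on low counts, and they did so through their level in the HBS1-lineage tumours, so their direction was fixed by the filter and no test of them is given. Mir127 averaged 1.89 CPM in HBS1-lineage tumours (248 reads in all) and 0.0198 CPM in LCS-driven tumours (8 reads). Mir433 had 160 reads in HBS1-lineage tumours and 7 in LCS-driven tumours. A read over a hairpin in a total RNA library cannot be told apart from a read of its host transcript, and mature microRNA was not measured.

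**Figure D1:**
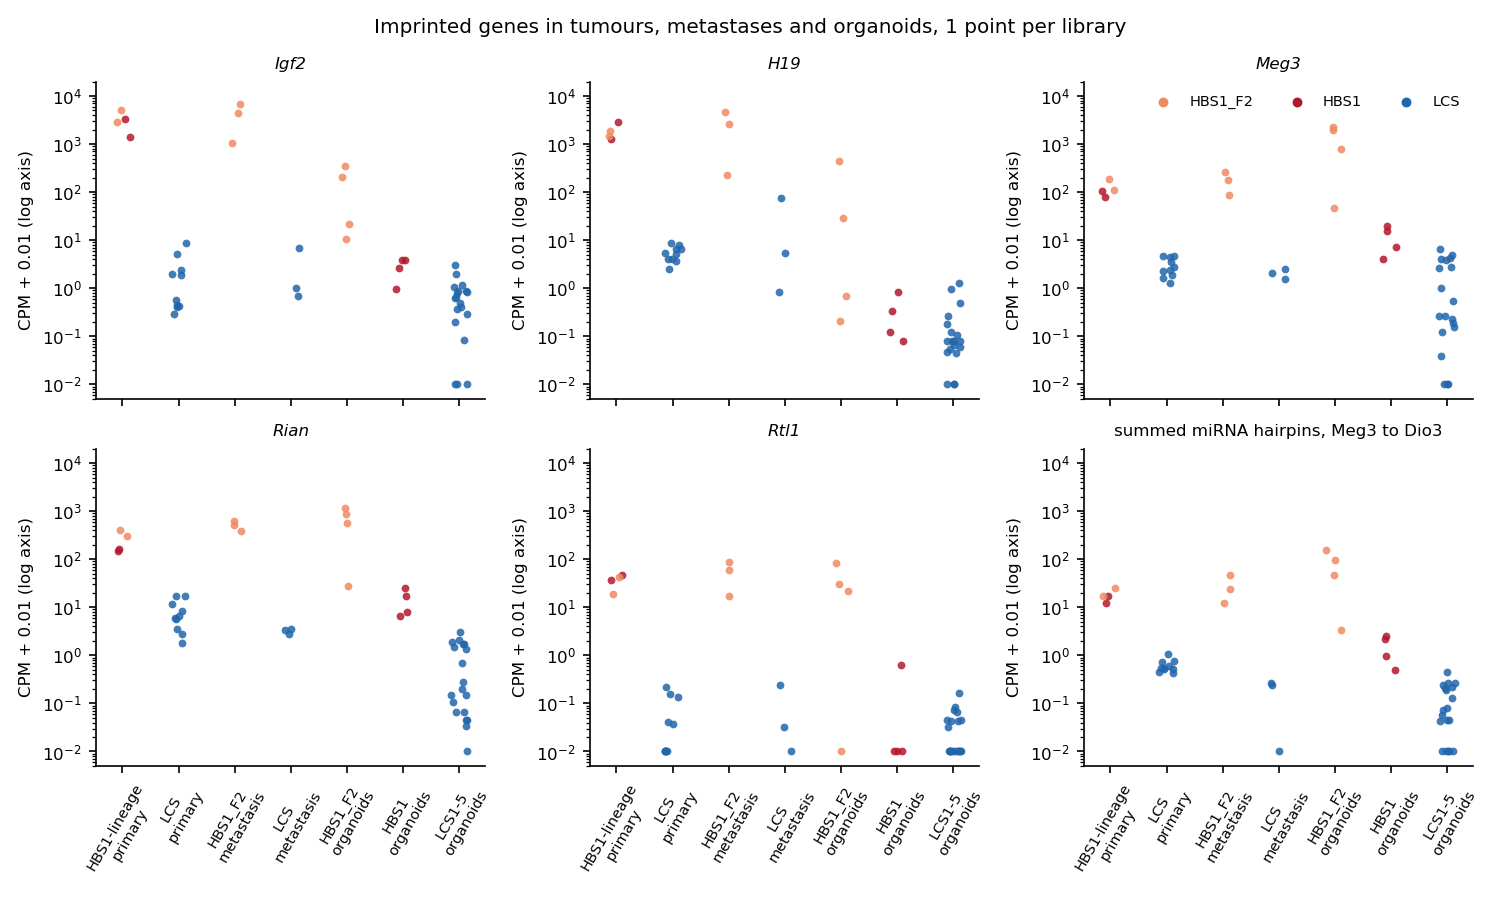
Share of each library's gene counts, in CPM on a log axis with 0.01 added, for 5 imprinted RNAs and for the summed hairpins between Meg3 and Dio3, with 1 point per library of primary tumours, peritoneal metastases and organoids. The 4 HBS1-lineage tumours lie above the 10 LCS-driven tumours in every panel, and HBS1 organoids lie below HBS1_F2 organoids for Igf2 and Meg3.

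Not every imprinted gene followed. Of 13 tested members of the imprinted list, 7 were called higher and 5 lower, with a median log2 fold change of 1.04. Sgce, a sarcoglycan gene, rose (2.65 ± 0.22) and the cell cycle inhibitor Cdkn1c rose less (1.04). The zinc finger gene Plagl1 fell to 0.0715, 0.121, 0.556 and 0.421 CPM in HBS1-lineage tumours, against 2.29, 5.64 and 19.3 CPM in LCS-driven tumours (-4.42 ± 0.71). Grb10, an adaptor that dampens insulin receptor signalling, fell by 1.90 on the log2 scale, and Mest, Ndn and Nnat were also called lower. The 5 lower calls became 3 without HBS1-driven tumour 1, 3 without LCS-driven tumour 6, and 2 without either HBS1_F2-driven tumour. The call of Mest was lost without any 1 of the 4 HBS1-lineage tumours or LCS-driven tumours 1, 2, 6 or 8, with adjusted p from 0.0540 to 0.119 (edgeR).

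Oncofetal genes outside the imprinted regions moved in both directions. Of 9 tested members of the fetal liver list, 6 were called higher and 2 lower, with a median log2 fold change of 4.75, and Igf2, H19 and Peg3 among the 6 are themselves imprinted. Afp had 50.4 and 41.1 CPM in HBS1_F2-driven tumours and 233 and 2131 CPM in HBS1-driven tumours, against 0.183, 0.577 and 6.25 CPM in LCS-driven tumours (9.06 ± 1.14, edgeR adjusted p = 3.61e-05). All 4 HBS1-lineage tumours lay above all LCS-driven tumours, and the spread among the 4 was wide. Gpc3, a cell surface proteoglycan of fetal liver, rose by 3.11, the RNA-binding protein gene Igf2bp3 by 4.75 and the zinc finger gene Peg3 by 5.43 on the log2 scale. Its relative Igf2bp2 went the other way, at 1.23 ± 0.79 CPM in HBS1-lineage tumours (SD, n = 4) and 10.5 ± 4.88 CPM in LCS-driven tumours (SD, n = 10), a log2 fold change of -3.07 ± 0.53. Hmga2, a chromatin protein gene of embryonic tissue, was called lower at means of 0.394 CPM in HBS1-lineage tumours and 3.00 CPM in LCS-driven tumours.

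Several genes with no shared role formed the rest of the largest rises. Serpina6, which encodes the corticosteroid-binding globulin of the liver, had 2544 and 4234 CPM in HBS1_F2-driven tumours and 920 and 1261 CPM in HBS1-driven tumours, against 0.370, 3.03 and 25.2 CPM in LCS-driven tumours (8.19 ± 1.03, edgeR adjusted p = 3.60e-05). Gkn3, a stomach gastrokine, had 45.2, 91.1, 86.0 and 82.5 CPM in HBS1-lineage tumours, against at most 0.469 CPM in LCS-driven tumours (9.001 ± 0.86). Cdh19, a cadherin of the neural crest, had 37.3 to 58.8 CPM in HBS1-lineage tumours, against at most 0.285 CPM in LCS-driven tumours (9.32 ± 0.71). Trim50 (9.69 ± 0.60), the inner ear gene Strc (9.06 ± 0.62), Bex4 (8.12 ± 0.62), the angiotensin-(1-7) receptor Mas1 (8.05 ± 0.46) and Scg5, a chaperone of secretory granules (8.04 ± 0.74), showed the same separation of groups. Gkn3, Cdh19, Trim50, Strc, Bex4, Mas1 and Scg5 were each at or below 0.965 CPM in all 10 LCS-driven tumours. Of these, Gkn3, Cdh19, Trim50, Strc, Bex4 and Mas1 passed the filter on low counts only through their level in HBS1-lineage tumours. Their direction was thus fixed by the filter, and their fold changes are given as sizes, not as tests.

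**Figure D2:**
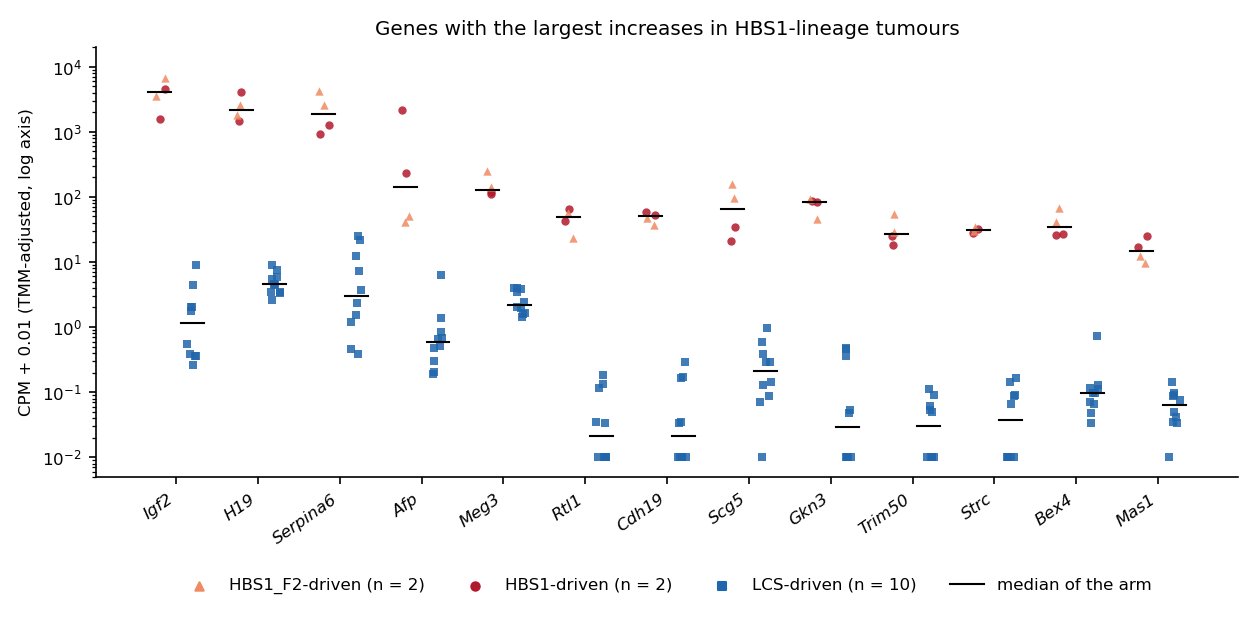
TMM-adjusted CPM on a log axis with 0.01 added, for 13 genes with large rises, with HBS1-lineage tumours left of LCS-driven tumours, 1 point per tumour and a bar at the median. For each gene the 4 HBS1-lineage tumours lie above all 10 LCS-driven tumours, with Afp the most spread among the 4.

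Albumin was abundant in both kinds of tumour, at 5802, 6366, 17420 and 39620 CPM in HBS1-lineage tumours and 246, 6471 and 37760 CPM in LCS-driven tumours, and the groups overlap (log2 fold change 0.68 ± 0.93, edgeR adjusted p = 0.567). Of 20 hepatocyte genes tested, 7 were called higher and 1 lower, with a median of 1.30 on the log2 scale. Ttr, the thyroid hormone carrier of plasma, had 2170, 2853, 2313 and 4450 CPM in HBS1-lineage tumours, against 130, 318 and 1110 CPM in LCS-driven tumours (2.82 ± 0.46). G6pc, the last enzyme of glucose release, rose by 3.37 ± 0.76, and Apob, Ass1, Hpd and the nuclear receptor Hnf4a were also called higher. Cyp3a11, a drug-metabolising enzyme, was called lower, at 6.79, 4.34, 46.4 and 49.6 CPM in HBS1-lineage tumours and 7.99, 360 and 3077 CPM in LCS-driven tumours (-4.59 ± 1.33). The 7 higher calls became 3 without HBS1-driven tumour 2 and 4 without HBS1_F2-driven tumour 1.

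Of 13 bile acid genes tested, 3 were called higher and 2 lower, shares near the 22.3% of all genes and below the 25.3%. Cyp7a1, the rate-limiting enzyme of the classic route of bile acid synthesis, averaged 1.67 ± 1.08 CPM in HBS1-lineage tumours (SD, n = 4) and 27.1 ± 43.0 CPM in LCS-driven tumours (SD, n = 10). Cyp8b1, which makes cholic acid, was at most 0.140 CPM in HBS1-lineage tumours, against a median of 3.24 CPM in LCS-driven tumours (-6.05 ± 1.66). Cyp8b1 passed the filter on low counts only through LCS-driven tumours, so its direction was fixed by the filter. Cyp7b1, of the alternative route, rose to 51.7 to 70.2 CPM in HBS1-lineage tumours, against 2.81 to 33.1 CPM in LCS-driven tumours (2.39 ± 0.43), and the groups do not overlap. The canalicular exporter Abcc2 (2.80 ± 0.66) and the repressor Nr0b2 (1.88) were also called higher. The call of Cyp7a1 (-3.99 ± 1.35, edgeR adjusted p = 0.0255) was lost without HBS1-driven tumour 1 or without either HBS1_F2-driven tumour, with adjusted p up to 0.0691 (edgeR).

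Of 14 biliary genes tested, 5 were called higher and 5 lower. The transcription factor Onecut1 had 7.86, 9.57, 4.50 and 10.7 CPM in HBS1-lineage tumours, against 0.176, 0.757 and 1.28 CPM in LCS-driven tumours (3.47 ± 0.44). Sox9 (1.76), a factor of developing bile ducts, rose with it. Spp1, which encodes the secreted protein osteopontin, had 14590 to 26890 CPM in HBS1-lineage tumours, against 1879 to 7398 CPM in LCS-driven tumours (2.36 ± 0.39). All 4 HBS1-lineage tumours lay above all 10 LCS-driven tumours for each of Onecut1 and Spp1.

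Epcam and Krt19 were among the genes called lower, with very low levels in the HBS1-lineage tumours. Epcam had 1.57 and 0.0482 CPM in HBS1_F2-driven tumours and 1.21 and 0.842 CPM in HBS1-driven tumours, against 155, 638 and 1239 CPM in LCS-driven tumours (-9.60 ± 0.96, edgeR adjusted p = 6.43e-06). Krt19 had 5.50 and 0.241 CPM in HBS1_F2-driven tumours and 0.404 and 0.316 CPM in HBS1-driven tumours, against 229, 879 and 1727 CPM in LCS-driven tumours (-9.37 ± 1.27). Krt7 fell by 9.23 and the tight junction gene Cldn4 by 8.93 on the log2 scale. Cd24a, a surface glycoprotein used to sort progenitor cells, had 11.5, 5.11, 15.3 and 5.37 CPM in HBS1-lineage tumours, against 252, 458 and 872 CPM in LCS-driven tumours (-5.75 ± 0.50). No HBS1-lineage tumour came within reach of the lowest LCS-driven tumour for any of Epcam, Krt19 or Cd24a.

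Several other epithelial genes had few or no reads in the HBS1-lineage tumours. Pof1b, an epithelial actin-binding protein gene, had no read in any of the 4, against 7.70 to 66.9 CPM in LCS-driven tumours, so it was at least 1490-fold lower (3 counts over the group taken as the floor). Serpinb11 was likewise at least 1430-fold lower, Chst4 at least 635-fold and Lrrc26 at least 619-fold. The splicing regulator Esrp1 had 2 reads in the HBS1-lineage tumours and 10745 in the LCS-driven tumours, a depth-adjusted ratio of 1800 in favour of LCS-driven tumours (95% counting interval 499 to 14900). Grhl2, an epithelial transcription factor, had 3 reads in HBS1-lineage and 2526 in LCS-driven tumours, a ratio of 282 (96.5 to 1370). Krt14, a keratin of basal cells, had 3 reads in HBS1-lineage and 19027 in LCS-driven tumours, a ratio of 2130 (728 to 10300). The pan-epithelial keratins Krt8 (-1.21, edgeR adjusted p = 0.102) and Krt18 (-0.37, edgeR adjusted p = 0.572) did not pass the test, and neither did E-cadherin, Cdh1 (-0.34, edgeR adjusted p = 0.437). Intervals cover counting error only. Pof1b, Serpinb11, Chst4, Lrrc26, Esrp1, Grhl2 and Krt14 passed the filter on low counts only through LCS-driven tumours. Their direction was thus fixed by the filter, and their ratios are given as sizes, not as tests.

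**Figure D3:**
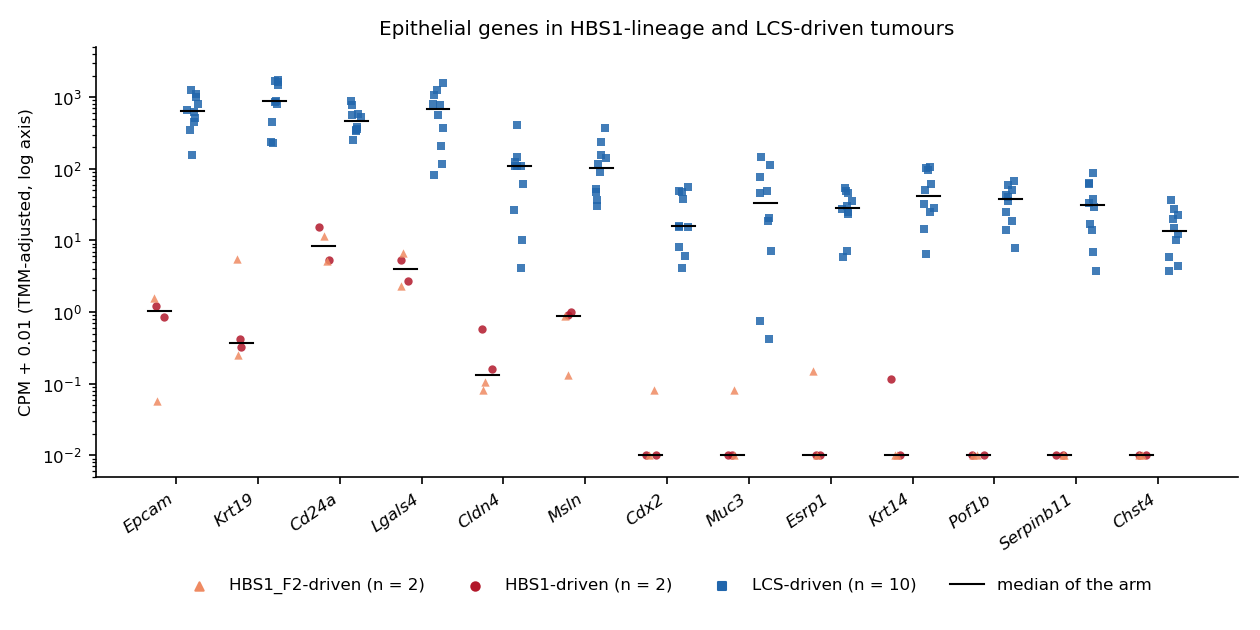
TMM-adjusted CPM on a log axis with 0.01 added, for 13 epithelial genes, with HBS1-lineage tumours left of LCS-driven tumours, 1 point per tumour and a bar at the median. Epcam lies at or below 1.57 CPM in the 4 HBS1-lineage tumours and at or above 155 CPM in the 10 LCS-driven tumours, and points at 0.01 had no read.

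Intestinal and squamous genes were a further group lower in the HBS1-lineage tumours. Of 14 gut and foregut genes tested, 3 were called higher and 10 lower, with a median of -3.26 on the log2 scale. The intestinal master regulator Cdx2 had 1 read in the HBS1-lineage tumours and 9117 in the LCS-driven tumours, where it reached 56.1 CPM. Its depth-adjusted ratio was 3060 in favour of LCS-driven tumours (95% counting interval 549 to 121000). Cdx2 passed the filter on low counts only through LCS-driven tumours, so its direction was fixed by the filter. Lgals4, an intestinal lectin, had 2.31 to 6.72 CPM in HBS1-lineage tumours, against 81.4, 673 and 1591 CPM in LCS-driven tumours (-7.34 ± 0.998). The antimicrobial genes Reg3b (-6.91) and Reg3g (-4.02) were also lower. The stomach gene Gkn3 and the endoderm factors Gata6 (1.46) and Foxa3 (1.95) were the 3 that rose.

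Of 11 mucin and trefoil genes tested, 5 were called lower and none higher. Muc4 had means of 1.62 CPM in HBS1-lineage tumours and 104 CPM in LCS-driven tumours, and Muc3 had 1 read in HBS1-lineage and 17516 in LCS-driven tumours. Of 9 squamous and urothelial genes, 7 were called lower and 1 higher. The cornified envelope genes Sprr1a (-7.89 ± 1.08) and Sprr2a3 (-8.63 ± 1.65) and the adaptor Sfn (-6.21) were among the lower ones, and reads of Sprr2a copies may be shared. The exception was Upk3a, a urothelial plaque gene, at 3.07, 21.6, 2.38 and 4.77 CPM in HBS1-lineage tumours, against at most 0.115 CPM in LCS-driven tumours (7.47 ± 0.79). Upk3a passed the filter on low counts only through its level in HBS1-lineage tumours, so its direction was fixed by the filter. Muc3, Sprr1a and Sprr2a3 passed that filter only through LCS-driven tumours, so their direction was fixed as well. Claudins moved both ways, with Cldn1 (2.21), Cldn12 (1.60) and Cldn14 (2.46) higher and Cldn4, Cldn8 and Cldn23 lower, of 11 tested.

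Mesothelial markers were low along with the epithelial ones. Msln, the mesothelin gene, had 0.121 to 0.983 CPM in HBS1-lineage tumours, against 29.8 to 372 CPM in LCS-driven tumours (-7.50 ± 0.98). Of 6 mesothelial genes tested, 5 were called lower, and Krt19 is among them. The list summed to 0.940 to 6.79 CPM in HBS1-lineage tumours and 270 to 1973 CPM in LCS-driven tumours, a sum that Krt19 leads. Mesothelin was also detected in cultured organoids, at 29.8 CPM in the HBS1_F2 line, 240 CPM in the HBS1 line and 271 to 1405 CPM in the LCS lines.

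Genes of fibroblasts and of matrix turnover were lower, with a spread that left many members short of the threshold. Of 16 fibroblast and stellate cell genes tested, 9 were called lower and none higher, with a median of -2.41. Summed over the list, HBS1_F2-driven tumours had 427 and 305 CPM and HBS1-driven tumours 5744 and 1652 CPM, against 3284, 8226 and 98530 CPM in LCS-driven tumours. HBS1-driven tumour 1 lay within the range of the LCS-driven tumours and the other 3 lay below it. Lum, a proteoglycan of collagen fibres, had 2.79, 1.30, 56.8 and 30.0 CPM in HBS1-lineage tumours, against 165 to 2393 CPM in LCS-driven tumours (-4.66 ± 1.18). The collagens Col1a1 (-4.02), Col1a2 (-4.16) and Col3a1 (-2.61) were called lower, and the pericyte receptor Pdgfrb (-0.60, edgeR adjusted p = 0.296) was not. The 9 calls became 2 without HBS1-driven tumour 2 and 2 without either HBS1_F2-driven tumour.

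Of 16 matrix protease and crosslinking genes, 10 were called lower and 1 higher. Mmp7, a protease of epithelial tumours, had at most 5.68 CPM in HBS1-lineage tumours, against 23.1 to 759 CPM in LCS-driven tumours (-7.27 ± 1.33). Lox, a collagen crosslinker, averaged 42.4 CPM in HBS1-lineage tumours and 424 CPM in LCS-driven tumours. Adamts1 was the 1 that rose (1.88 ± 0.27). The 10 lower calls became 5 without HBS1-driven tumour 2 and 5 without HBS1_F2-driven tumour 2.

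Genes of the epithelial to mesenchymal transition were more often lower than higher, and the lower ones included both mesenchymal and epithelial genes. Of 16 tested, 2 were called higher and 9 lower, with a median of -1.73 on the log2 scale. N-cadherin, Cdh2, had 154 to 205 CPM in HBS1-lineage tumours, against 7.35, 26.4 and 152 CPM in LCS-driven tumours (1.92 ± 0.57), and fibronectin, Fn1, rose by 0.96 ± 0.29. Vimentin, Vim, fell to a mean of 186 CPM in HBS1-lineage tumours, against 608 CPM in LCS-driven tumours, and S100a4, Twist1, Twist2, Snai1 and Tgfb2 were called lower. The epithelial regulators Esrp1, Grhl2 and Ovol1 made up the other 3 lower calls. The 9 calls became 5 without HBS1-driven tumour 2 and 5 without either HBS1_F2-driven tumour.

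Bone and cartilage genes stood out among the largest falls and rested on a few LCS-driven tumours. Ibsp, bone sialoprotein, had no read in the HBS1-lineage tumours. Among the LCS-driven tumours, tumour 4 reached 7379 CPM, tumour 10 reached 1714 CPM and tumour 8 reached 43.7 CPM, while no other exceeded 7.86 CPM and the median was 2.78 CPM. Sp7, the osteoblast transcription factor, had 232 CPM in LCS-driven tumour 10 and 35.2 CPM in tumour 4, and Acan, the cartilage proteoglycan aggrecan, 202 and 15.8 CPM in the same tumours. Osteocalcin, Bglap, and the Wnt inhibitor Wif1 were likewise highest in tumours 10 and 4. Taken over the groups, Ibsp was at least 30200-fold lower in HBS1-lineage tumours, Sp7 at least 1400-fold and Acan at least 1240-fold.

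These calls were close to the threshold. The adjusted p of Ibsp was 0.0449, that of Sp7 0.0482 and that of Acan 0.0398 (edgeR). None of the 3 genes had a read in the HBS1-lineage tumours, so they passed the filter on low counts only through LCS-driven tumours. Their direction was thus fixed by the filter, and these p-values do not test it. Each of the 3 calls was lost when any 1 of the 4 HBS1-lineage tumours was left out, with adjusted p of 0.0808 to 0.0880 for Ibsp. Without LCS-driven tumour 4 or 10 the adjusted p of Ibsp was 0.0553 (edgeR). Chi3l4, a chitinase-like gene, rested on LCS-driven tumour 9, reaching 444 CPM in that library, while the other 9 LCS-driven tumours stayed within 32.4 CPM. With LCS-driven tumours 4 and 10 both left out, 3940 genes were called higher and 4308 lower.

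**Figure D4:**
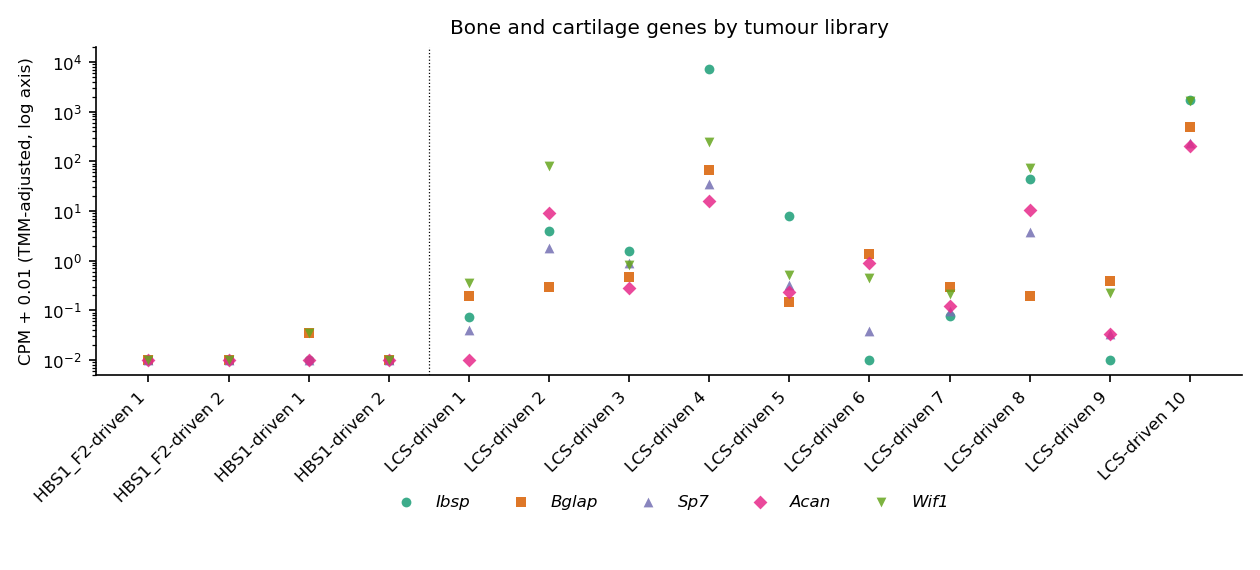
TMM-adjusted CPM of 5 bone and cartilage genes on a log axis with 0.01 added, by tumour, with HBS1-lineage tumours left of LCS-driven tumours. LCS-driven tumours 4 and 10 have the highest Ibsp, at 7379 and 1714 CPM, and the 4 HBS1-lineage tumours have no read of it.

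Resident macrophage genes were lower, and most other blood cell genes did not pass the test. Of 16 macrophage genes tested, 8 were called lower. The only 1 called higher was Spp1, which tumour cells also express. Clec4f, the lectin that marks Kupffer cells, the liver's own macrophages, had 0.5, 0, 0.834 and 1.26 CPM in HBS1-lineage tumours, against 0.588, 25.9 and 101 CPM in LCS-driven tumours (-6.01 ± 1.32). Vsig4 (-5.54 ± 1.14), Marco (-4.30), Cd163 (-4.31) and Timd4 (-2.52), also of Kupffer cells, were called lower. The general macrophage markers Csf1r (-0.89, edgeR adjusted p = 0.0549) and Cd68 (0.69, edgeR adjusted p = 0.134) were not called. The 8 calls became 5 without HBS1-driven tumour 2 and 4 without either HBS1_F2-driven tumour. Of 20 hepatocyte genes, 7 were called higher and 1 lower. Their summed level was 55070 to 102200 CPM in HBS1-lineage tumours, against 2185 to 74940 CPM in LCS-driven tumours. The list cannot tell hepatocytes of surrounding liver from tumour cells that express the same genes. The part of surrounding liver in these differences was not tested.

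Of 17 T and NK cell genes, none was called by edgeR. At an unadjusted p under 0.05 the count was also 0, and DESeq2 called 1 lower. Of 15 interferon response genes, edgeR called none, 1 had an unadjusted p under 0.05, and DESeq2 called 1 lower. Of 14 endothelial genes 1 was called higher (Cdh5, 0.94 ± 0.32), of 12 neutrophil genes 3 were called lower (Ltf, Ly6g and Il1b), and of 7 erythroid genes none by edgeR or DESeq2, with 0 at an unadjusted p under 0.05. Of 9 B and plasma cell genes, Sdc1 and Pou2af1 were called higher and the immunoglobulin gene Ighm lower, and Sdc1 is also a gene of hepatocytes. The neutrophil count became 1 without HBS1-driven tumour 1 or HBS1_F2-driven tumour 1, and the B cell count of 1 lower became 3 without LCS-driven tumour 4. The call of Ighm was lost without any 1 of the 4 HBS1-lineage tumours, with adjusted p from 0.0811 to 0.0987 (edgeR). The Cdh5 call was lost without either HBS1-driven tumour, with adjusted p up to 0.139 (edgeR). Of 7 neural genes 4 were called lower, led by Stmn2 and Tubb3, and Ncam1 (-4.22 ± 0.82) had 0.289 to 12.6 CPM in HBS1-lineage tumours, against 39.7 to 144 CPM in LCS-driven tumours.

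Proliferation genes were lower in the HBS1-lineage tumours. Of 20 tested, 13 were called lower and none higher, with a median of -1.20. Top2a, the DNA topoisomerase of dividing cells, had 47.2, 44.1, 25.2 and 36.6 CPM in HBS1-lineage tumours, against 73.1, 200 and 319 CPM in LCS-driven tumours (-2.35 ± 0.36, edgeR adjusted p = 0.000171), and the groups do not overlap. Ccnb1, a mitotic cyclin, had 3.59 to 11.9 CPM in HBS1-lineage tumours, against 15.2 to 52.4 CPM in LCS-driven tumours (-2.43 ± 0.42). Mki67 fell by 1.23 on the log2 scale. The replication helicase genes Mcm2 (-0.58), Mcm3 (-0.81), Mcm5 (-0.87) and Mcm6 (-0.58) did not pass the test.

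Genes of glycolysis and the hypoxia response were lower in part. Of 17 tested, 7 were called lower and none higher. Car9, the carbonic anhydrase induced by low oxygen, had 0.316 to 1.04 CPM in HBS1-lineage tumours, against 11.9, 41.1 and 109 CPM in LCS-driven tumours (-6.33 ± 0.78). Pkm2, pyruvate kinase of dividing tissue, had 86.2 to 257 CPM in HBS1-lineage tumours, against 694 to 2985 CPM in LCS-driven tumours (-3.13 ± 0.46). Vegfa (-0.15, edgeR adjusted p = 0.791) and Gapdh (0.62, edgeR adjusted p = 0.0887) were not called. The 7 calls became 4 without HBS1-driven tumour 1, 3 without HBS1-driven tumour 2 and 4 without HBS1_F2-driven tumour 1. All 10 mitochondrially encoded genes were called higher, with a median of 1.92, and 1 of the 10 was called with the block term. mt-Nd2, which encodes a subunit of complex I, had 672, 656, 420 and 806 CPM in HBS1-lineage tumours, against 43.5, 84.1 and 147 CPM in LCS-driven tumours (2.94 ± 0.31).

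Lipid synthesis was higher on the fatty acid side and near level on the cholesterol side. Of 15 fatty acid synthesis genes, 8 were called higher and 2 lower, with a median of 1.47. Scd1, the stearoyl-CoA desaturase of liver, had 6288, 4248, 1800 and 3756 CPM in HBS1-lineage tumours, against 52.8, 275 and 1834 CPM in LCS-driven tumours (2.93 ± 0.69). Acacb, the acetyl-CoA carboxylase that restrains fatty acid oxidation, rose by 3.70 ± 0.59. The lipogenic transcription factors Mlxipl (2.65) and Srebf1 (1.77) rose, and Elovl6 (-1.14) and the malic enzyme gene Me1 (-0.95) fell. Of 10 lipid droplet genes, 7 were called higher and 2 lower, which became 4 higher without HBS1-driven tumour 2 or HBS1_F2-driven tumour 2. Of 19 cholesterol synthesis genes, 1 was called higher (Dhcr7, 0.99 ± 0.36) and none lower, with a median of -0.05. Dhcr7 lost its call without HBS1-driven tumour 2 or either HBS1_F2-driven tumour. Its log2 fold change was -0.14 with the block term and -0.14 within block 044, where HBS1-driven tumour 1 lay below all 3 LCS-driven tumours.

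Of 15 Notch pathway genes tested, 8 were called higher and 3 lower. The receptor Notch1 had 150, 198, 80.8 and 136 CPM in HBS1-lineage tumours, against 40.3, 55.8 and 87.7 CPM in LCS-driven tumours (1.27 ± 0.24, edgeR adjusted p = 0.000759), and HBS1-driven tumour 1 lay below the highest LCS-driven tumour. Notch2 (0.69) and Notch4 (1.04) were also called higher. The target and feedback gene Nrarp had 77.8, 83.0, 37.0 and 64.3 CPM in HBS1-lineage tumours, against 4.61, 11.2 and 21.6 CPM in LCS-driven tumours (2.48 ± 0.32), without overlap. The target repressors Hes1 (1.21) and Heyl (2.05 ± 0.42) rose, as did Dtx1. The receptor Notch3 (0.51, edgeR adjusted p = 0.418) and the targets Hey1 (0.10, edgeR adjusted p = 0.924) and Hey2 (1.98, edgeR adjusted p = 0.0767) were not called. The ligands Jag1 (-1.14), Jag2 (-1.69 ± 0.34) and Dll1 (-1.25 ± 0.36) fell, and the endothelial ligand Dll4 rose (0.92).

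Of 18 targets of beta-catenin tested, 3 were called higher and 10 lower, with a median of -1.52. The general targets Axin2 (-2.04), Nkd1 (-3.17), Notum (-4.86) and Lef1 (-5.23) were lower, as was Apcdd1, at 0 to 0.505 CPM in HBS1-lineage tumours and 1.05 to 160 CPM in LCS-driven tumours (-7.11 ± 2.09). Axin2, Nkd1, Notum and Lef1 were each highest in LCS-driven tumour 10, which held 45.8% of the summed LCS-driven level of Lef1 and 41.7% of that of Notum. The 10 lower calls became 8 without LCS-driven tumours 4 and 10, and 7 to 10 when 1 library was left out. The liver targets were divided. Glul, glutamine synthetase, fell by 1.01, while Oat (1.55 ± 0.34) and the ammonium transporter Rhbg rose. Rhbg had 45.7, 46.1, 17.7 and 39.6 CPM in HBS1-lineage tumours, against 0.294 to 8.52 CPM in LCS-driven tumours (3.68 ± 0.62).

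Promoters were searched in the 250 bases before each gene start, taken from RefSeq windows (GRCm38.p6). The letters CTTTGA (a TCF/LEF motif, either strand) were in 15.8% of genes with a window and TGGGAA (an RBPJ motif, either strand) in 24.1%. Of 12 Notch pathway genes with a window, 0 held CTTTGA and 2 held TGGGAA. Of 12 beta-catenin targets, 5 held CTTTGA and 1 held TGGGAA. Among named genes with a window, CTTTGA was in 5 of 28 called higher and in 9 of 41 called lower. TGGGAA was in 8 of those called higher and in 11 of those called lower.

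Trp53 itself was not called, at 17.9 ± 3.08 CPM in HBS1-lineage tumours (SD, n = 4) and 17.6 ± 6.92 CPM in LCS-driven tumours (SD, n = 10). Its log2 fold change was 0.02 ± 0.27 (edgeR adjusted p = 0.952). Of 16 targets of p53, 3 were called higher and 4 lower, with a median of -0.02. The cell death gene Pmaip1 had 1.23 to 3.93 CPM in HBS1-lineage tumours, against 14.3 to 109 CPM in LCS-driven tumours (-4.89 ± 0.53), whereas Cdkn1a (0.21) and Mdm2 (-0.03) were not called. The 3 higher calls became 1 without any 1 of the 4 HBS1-lineage tumours or LCS-driven tumours 1, 3, 5 or 7. Of 16 PI3K and insulin signalling genes, 8 were called higher and 1 lower. Irs2, an adaptor of the insulin receptor, rose by 2.86 ± 0.34, Insr by 1.69 and Foxo1 by 1.85, and Akt1 fell by 0.53.

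Markers used for stem and progenitor cells did not move together. Of 12 tested, 4 were called higher and 4 lower. Prom1, which encodes CD133, had 51.3 to 63.8 CPM in HBS1-lineage tumours, against 3.71, 8.55 and 31.8 CPM in LCS-driven tumours (2.27 ± 0.41, edgeR adjusted p = 0.000528). Ly6d (2.73 ± 0.87) and Aldh1a1 (2.04) rose, whereas Cd24a, Cd44 (-2.10) and Ly6a (-4.34 ± 0.94) fell. Ly6d had 257 and 614 CPM in HBS1_F2-driven tumours and 25.9 and 52.0 CPM in HBS1-driven tumours, against 2.02 to 99.1 CPM in LCS-driven tumours, and its call was lost without HBS1_F2-driven tumour 2 (edgeR adjusted p = 0.168).

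**Figure D5:**
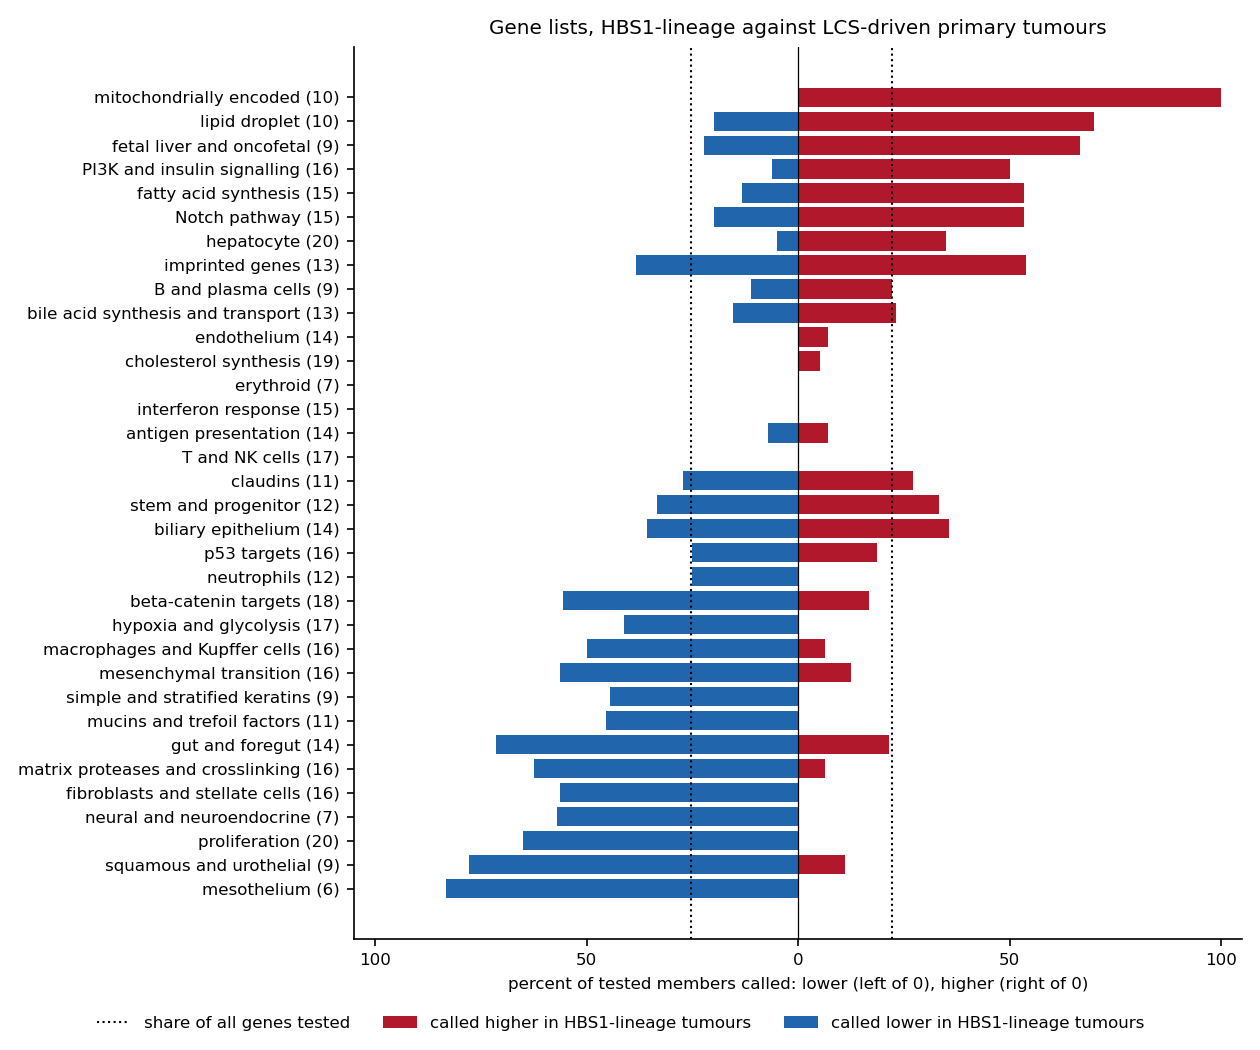
Percent of the tested members of each gene list called higher (right of 0) and lower (left of 0) in HBS1-lineage tumours relative to LCS-driven tumours, with the number tested in brackets and dotted lines at the shares of all genes, 22.3% and 25.3%. The mitochondrially encoded list has 10 higher of 10 (1 with the block term), the fetal liver list 6 higher of 9 and the proliferation list 13 lower of 20.

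The pooled arm itself was tested by setting HBS1_F2-driven against HBS1-driven tumours. The LCS-driven tumours entered this fit and gave most of its spread. Of 18466 genes, 66 (0.357%) were called, 8 higher and 58 lower in HBS1_F2-driven tumours. A fit of the 4 HBS1-lineage tumours alone called 63 higher and 141 lower, so genes not called here may still differ between the labels. Fut2, a fucosyltransferase of secreted glycans, had 13.9 and 50.7 CPM in HBS1_F2-driven tumours, against 0.328 and 0.211 CPM in HBS1-driven tumours (6.87 ± 1.20, edgeR adjusted p = 0.0265). Fxyd3 had 76.0 and 79.7 CPM in HBS1_F2-driven tumours, against 2.40 and 3.48 CPM in HBS1-driven tumours. Hk2, the hexokinase of glycolytic tissue, had 90.7 and 135 CPM in HBS1_F2-driven tumours, against 11.9 and 4.54 CPM in HBS1-driven tumours. Folr1, a folate receptor, and Tmtc2 were also higher.

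Pigr, which carries IgA across epithelium, was the most abundant of the genes named lower, at 5.27 and 10.4 CPM in HBS1_F2-driven tumours and 319 and 545 CPM in HBS1-driven tumours (-5.78 ± 0.99, edgeR adjusted p = 0.0253). Cst8, a cystatin, had 0 and 0.0725 CPM in HBS1_F2-driven tumours, against 16.9 and 36.2 CPM in HBS1-driven tumours. Greb1l and the surface protease Dpp4 were lower too. Igf2 (0.76, edgeR adjusted p = 0.916), H19 (-0.33, edgeR adjusted p = 0.907) and Epcam (-0.52, edgeR adjusted p = 0.928) were not called between the labels. Afp had a log2 fold change of -4.69 ± 1.64 (edgeR adjusted p = 0.281). With 2 tumours a label, each fit that left out 1 of them had a lone tumour in that label. Every such fit called fewer genes each way. Such a fit also has less data, so the part of any single library in the calls was not tested. DESeq2 called 114 higher and 406 lower.

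The same lineages were compared in metastases of the peritoneum, as the source or title labels them, with 3 HBS1_F2-driven and 3 LCS-driven libraries that share no library with the primary tumours, a comparison chosen after the tumour results were seen. Whether a metastasis and a primary tumour came from the same animal is not stated. The HBS1_F2-driven metastases are in block 048 and the LCS-driven metastases in block 044, so lineage and block cannot be told apart here. Of 15940 genes, 3248 (20.4%) were called, 1817 (11.4%) higher and 1431 (8.98%) lower. Of the genes tested in both, 1447 were called higher in both comparisons, which is 39.1% of the calls in primary tumours and 80.5% of those in metastases. Another 1160 were called lower in both, which is 30.2% of the calls in primary tumours and 81.4% of those in metastases. Called in opposite directions were 0 of the genes higher and 5 of the genes lower in the primary tumours.

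Igf2 had 4865, 7205 and 1201 CPM in HBS1_F2-driven metastases, against 0.815, 0.771 and 5.61 CPM in LCS-driven metastases (10.74 ± 1.43, edgeR adjusted p = 0.00697). Meg3 had 287, 186 and 100 CPM in HBS1_F2-driven metastases, against 2.99, 1.24 and 1.68 CPM in LCS-driven metastases (6.75 ± 0.59). H19, at 2782, 4978 and 254 CPM in HBS1_F2-driven metastases and 6.52, 0.646 and 61.4 CPM in LCS-driven metastases, did not pass the test (6.85 ± 2.0, edgeR adjusted p = 0.0568), though the groups do not overlap. The hairpins between Meg3 and Dio3 summed to 46.1, 24.3 and 12.4 CPM in HBS1_F2-driven metastases, against 0, 0.252 and 0.227 CPM in LCS-driven metastases. Epcam had 0.236, 0 and 0.0702 CPM in HBS1_F2-driven metastases, against 497, 300 and 627 CPM in LCS-driven metastases (-11.89 ± 0.88).

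Some gene groups had other counts at this site than in the primary tumours, a difference that was not tested. Albumin had 4017, 4361 and 1476 CPM in HBS1_F2-driven metastases, against 50.01, 62.0 and 4.60 CPM in LCS-driven metastases (6.40 ± 1.15). Both kinds of metastasis had less albumin than any primary tumour with the same label. Of 20 hepatocyte genes 12 were called higher in HBS1_F2-driven metastases and none lower, with a median of 5.16. Cyp3a11, lower in the HBS1-lineage primary tumours, was higher in HBS1_F2-driven metastases, at 10.3, 13.4 and 8.77 CPM, against 0, 0.126 and 0.235 CPM in LCS-driven metastases (6.01 ± 0.58). The Kupffer gene Vsig4 (-0.52, edgeR adjusted p = 0.605) was not called, and of 20 proliferation genes 1 was called higher and none lower. Of the mitochondrially encoded genes 2 of 10 were called higher. LCS-driven metastasis 1 held 4393199 counts, with 34.9% in ribosomal repeats. Without it 1020 genes were called higher and 837 lower, and without HBS1_F2-driven metastasis 2 the counts were 668 and 355. They were 728 and 417 without HBS1_F2-driven metastasis 1, 771 and 545 without LCS-driven metastasis 3, and 1202 and 1025 without LCS-driven metastasis 2.

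Cultured organoids were compared in the same model, with the 2 HBS1-lineage lines (8 libraries) against 5 LCS lines (19 libraries) and each line as a replicate. HBS1 and HBS1_F2 share a line name, so they may not be independent lines, and the spread was estimated from the tumours too. Of 19813 genes, 1071 (5.41%) were called, 913 (4.61%) higher and 158 (0.797%) lower. Meg3 had 1072 CPM in the HBS1_F2 line and 11.7 CPM in the HBS1 line, against 0.080 to 4.65 CPM in the LCS lines (8.18 ± 1.26, edgeR adjusted p = 0.000575). Igf2 had 134 CPM in the HBS1_F2 line and 2.96 CPM in the HBS1 line, against 0.0978 to 1.56 CPM in the LCS lines (6.32 ± 1.31, edgeR adjusted p = 0.00579). H19, Rtl1, Trim50, Strc, Gkn3, Serpina6 and Mas1 were also called higher, and in the HBS1 line each of these 7 was at or below 0.311 CPM. The hairpins summed to 3.42 to 159 CPM in HBS1_F2 organoids and 0.483 to 2.49 CPM in HBS1 organoids, against 0 to 0.442 CPM in LCS organoids. Of 16 fibroblast genes 8 were called higher, with a median of 4.80. Col1a2 had 160 CPM in the HBS1_F2 line and 0.241 CPM in the HBS1 line, against at most 0.124 CPM in the LCS lines. Of the Notch genes 6 of 15 were called higher and 1 lower, with Notch1 (1.81), Nrarp (2.80) and Heyl (7.23) higher and Jag2 (-2.07) lower.

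Epithelial genes were present in HBS1 organoids. Epcam had 5.03 CPM in the HBS1_F2 line and 527 CPM in the HBS1 line, against 117 to 404 CPM in the LCS lines (0.11 ± 1.01, edgeR adjusted p = 0.974). Cd24a had 139 CPM in the HBS1_F2 line and 392 CPM in the HBS1 line, against 182 to 344 CPM in the LCS lines (0.11 ± 0.50). The difference between tumours minus the difference between organoids was called for 2537 genes (12.8%), 956 positive and 1581 negative. It was -9.64 ± 1.40 for Epcam, -7.22 ± 1.39 for Krt19, -5.80 ± 0.63 for Cd24a and 9.72 ± 2.95 for Afp, all past the threshold. It was not called for Igf2 (4.66 ± 1.85, edgeR adjusted p = 0.0985), H19 (0.70 ± 1.29, edgeR adjusted p = 0.755) or Notch1 (-0.48 ± 0.57).

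Single lines and libraries weighed on the organoid results. Without the HBS1_F2 line 116 genes were called higher and 25 lower, and the calls of Igf2, H19, Meg3, Rtl1, Trim50, Strc, Gkn3, Serpina6, Mas1, Notch1, Nrarp, Heyl and Jag2 were all lost, with adjusted p from 0.0764 for Nrarp to 0.998 for Strc (edgeR). In that fit the log2 fold change of Strc was -0.0425 and that of Serpina6 -0.92. Without the HBS1 line Epcam (-5.62, edgeR adjusted p = 0.0224) and Pof1b (-5.53) were called lower and Jag2 was not called. Without LCS1, LCS2 or LCS5 organoids the genes called lower numbered 100, 91 and 296, and Serpina6 lost its call without LCS1 or LCS2. The positive differences of differences fell to 247 without the HBS1 line (1033 negative), 613 without the HBS1_F2 line and 634 without LCS3, and Afp lost its call in each of those 3 fits (edgeR adjusted p = 0.195, 0.0789 and 0.0579). Among the libraries, HBS1 organoids 3 had 157 CPM of the Y-linked Ddx3y, and HBS1_F2 organoids 2 had an Rpl34-ps1 share of 84.8%, within the range of the LCS organoids. Without these 2 libraries 1563 genes were called higher and 390 lower, and the 13 genes named above as lost were called in the same direction, while the Afp difference of differences had an adjusted p of 0.0510 (edgeR). In a fit of organoids alone, 22 genes were called higher and 1 lower among 16685 genes also tested in the tumours.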

How the data were processed

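RNA of dissected mouse liver tumours, metastases and cultured organoids was isolated with an RNeasy Micro kit and made into stranded total RNA libraries, per the labels' protocols. The authors deposited 1 table of counts per library, that is, whole numbers of reads given to each of 34591 gene symbols, plus 5 summary entries for unassigned reads, which were left out. Reads without a feature were 16.7 to 25.2% of entries in HBS1-lineage and 15.4 to 30.5% in LCS-driven tumours, and reads not aligned 3.6 to 12.2% in HBS1-lineage and 2.85 to 31.5% in LCS-driven tumours. Per the submitters' processing notes, the tools were BWA, STAR and HTSeq, and the genome build was mm9. Tool versions and order, the annotation and strand handling were not given in the sources used here. Near-identical genes and overlapping genes may share reads.

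Counts were analysed with edgeR 4.0.16 in R 4.3.3. Genes were kept by filterByExpr (minimum count 10, minimum total 15, large group size 10, proportion 0.7), libraries were scaled by TMM, and a quasi-likelihood test was fitted across all genes with Benjamini-Hochberg adjustment. A gene was called at an adjusted p under 0.05, and "rose", "fell", "higher" and "lower" are used of called genes. Fold changes are fitted log2 values ± SE. Levels are TMM-adjusted CPM (counts per 1000000), and hairpin sums are shares of the library total. Depth was 17428577 to 55723344 counts per tumour, and a gene with no read in the 4 HBS1-lineage tumours was set to a floor of 3 counts over the group. Ratios of genes with 1 to 3 reads carry exact 95% intervals. Named genes with 3 reads or fewer in the HBS1-lineage tumours passed the filter only through LCS-driven tumours, so their direction was fixed by the filter. List counts include genes whose direction was fixed in this way, among the higher and among the lower. The primary tumour fits used the 14 tumours, with HBS1_F2-driven and HBS1-driven as separate levels for the comparison between them. The organoid comparison and the difference of differences used summed counts per line. The script was tested on simulated data.

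The members, the 37 gene lists and the tests were chosen with earlier results of these data known. The genes named are Trp53, Notch1, Prom1, Igf2, H19, Afp and Alb, the 12 largest fitted changes each way with a mean of at least 10 CPM, and up to 2 called members of each list each way with at least 5 CPM. In the other tests the 5 largest each way were taken. A few genes so chosen are not reported here. Other list members in the text were chosen after their values were seen. Of the listed genes, 2 have no row in the files. DESeq2 1.42.0, no filter, each library left out, the identifier block, each HBS1 label alone, the ribosomal share as a covariate and a 2-fold limit were tried as alternatives. Leaving out LCS-driven tumours 4 and 10, or the pair of unusual organoid libraries, and the comparison of metastases were added after seeing the data. MicroRNA sequences and promoter windows are from RefSeq GRCm38.p6, whose coordinates were not joined to the files.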

Additional observations from a re-analysis of the deposited data

Results flagged for a closer look

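In groups of 4 and of 10 tumours, 14 of 186 tested sets of values had a lowest or highest library far from the rest, and chance gives about 1 in 20. Among the HBS1-lineage tumours, HBS1_F2-driven tumour 1 was apart for Gkn3 (45.2 CPM, nearest 82.5), Krt19 (5.50 CPM, nearest 0.404), Mest (2.86 CPM, nearest 8.42) and Sprr2a3 (1.72 CPM, nearest 0). HBS1-driven tumour 1 was apart for Rhbg (17.7 CPM, nearest 39.6), Cideb (22.6 CPM, nearest 66.3) and Cidea (1.39 CPM, nearest 0.246). Among the LCS-driven tumours, tumour 10 was apart for Mmp2 (866.5 CPM, nearest 151), Ighm (209.5 CPM, nearest 10.4), Pnpla3 (10.3 CPM, nearest 2.49) and Pmaip1 (14.3 CPM, nearest 50.4). Tumour 2 was apart for Afp (6.25 CPM, nearest 1.35), tumour 8 for Abcc2 (2.35 CPM, nearest 32.8) and tumour 3 for Tap2 (26.5 CPM, nearest 44.5).

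The difference between the lineages was not the same in tumours and in organoids for the genes below, by edgeR's test of the tumour difference minus the organoid difference. It was positive for Afp (9.72), Mettl7b (9.42), Clrn3 (9.42), Cst8 (9.30) and Sult1d1 (9.26). It was negative for Emid2 (-18.57), Gp2 (-15.76), Kcnh5 (-14.88), Pof1b (-14.80) and Col1a2 (-14.19), of which Emid2, Kcnh5 and Pof1b had no read in the HBS1-lineage tumours, so their size depends on the prior count. Col1a2, a collagen of fibroblasts, averaged 428 CPM in HBS1-lineage and 7116 CPM in LCS-driven tumours, and 160 CPM in the HBS1_F2 line, 0.241 CPM in the HBS1 line and at most 0.124 CPM in the LCS lines. The part of each library named here in these values was not tested.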

How the results depend on the processing

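For primary tumours, DESeq2, no filter and the ribosomal covariate each gave counts within 1.5 times of 3893 and 4411. Leaving out 1 library gave 3164 to 3984 higher and 3322 to 4456 lower. Block 044 alone gave 0 and 0, the block term 520 and 241, HBS1-driven tumours alone 2522 lower, and a limit of more than 2-fold 2104 higher. Dhcr7 had the opposite sign with the block term (-0.14) and within block 044 (-0.14), and Zmat3 with HBS1_F2-driven tumours alone (-0.14). The cause was not tested, but the block fits compare fewer tumours.

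For HBS1_F2-driven against HBS1-driven tumours (8 and 58), DESeq2 gave 114 and 406, no filter 5 and 36, the 4 tumours alone 63 and 141, and leaving out 1 library 0 to 2 and 0 to 53, with a lone tumour assumed to vary like the others. For organoids (913 and 158), DESeq2 gave 769 lower, leaving out 1 line 116 to 1256 and 25 to 296, and leaving out HBS1 organoids 3 and HBS1_F2 organoids 2 gave 1563 and 390. Leaving out 1 line, the log2 fold change ran from -5.53 to 1.79 for Pof1b and from -5.62 to 1.11 for Epcam, lowest without HBS1 organoids. It ran from -0.0425 to 8.32 for Strc and from -0.92 to 7.92 for Serpina6, lowest without HBS1_F2 organoids. The difference of differences (956 and 1581) gave 1522 and 2458 with DESeq2, 530 positive with no filter, 247 to 879 and 1033 to 1816 leaving out 1 line, and 595 positive without those 2 libraries. For metastases (1817 and 1431), DESeq2 gave 2782 and 2601 and leaving out 1 library 668 to 2330 and 355 to 2061.

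No paired analysis was possible because the labels give no replicate numbers. The HBS1-lineage arm has 4 tumours of 1 line name, and most of it shares no block with the LCS-driven tumours, so lineage and block cannot be told apart there.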
